A study of Mus musculus with 13 samples.

Results

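In Hepa 1-6 cells, a mouse hepatoma line, 7339 H3K27ac regions lay at the start of a protein-coding gene and overlapped no KAP1 peak. They were chosen by measured positions. An H3K27ac region had to be under 4000 bp wide, to have its centre within 1 kb of the annotated start of a protein-coding transcript (mouse assembly mm9, GENCODE M1) and to share no base with a KAP1 peak. The 7339 KAP1-free regions were 12.7% of all 57562 H3K27ac regions and 69.4% of the 10575 that passed the width and distance limits, and the other 3236 of these overlapped KAP1. Width, distance to the start and absence of KAP1 are therefore properties of the choice, and they are described below without a test.

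H3K27ac is an acetylation of histone H3 that the acetyltransferases p300 and CBP place at active promoters and enhancers, where it is read by bromodomain proteins such as BRD2. KAP1, encoded by Trim28, is a corepressor that KRAB zinc finger proteins bring to DNA, where it gathers SETDB1, HP1 proteins and the NuRD complex, and it has also been found at promoters in open chromatin. H3K4me1 typically flanks active promoters and marks enhancers, H3K9me3 marks silenced chromatin, and RNA polymerase II (PolII) transcribes protein-coding genes.

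The lists of KAP1, H3K27ac, H3K4me1 and H3K9me3 came from untreated Hepa 1-6 cells in standard culture per the sample labels, and those of PolII and RNA polymerase III (PolIII) from cells fixed 5 days after transduction with a control plasmid or with a hairpin RNA against KAP1 (Kap1 KD). One label field, the treatment text, gives the transduction for every sample, and the control is a control hairpin in the labels but an empty vector in the methods of the study. Of the 13 samples, 8 have a list, from 1 library per antibody and condition, and the 5 inputs were not analysed here. No value has a replicate error, no read depth is known, and a p-value here measures how listed regions differ from one another, not how replicate cultures do. The lists held 12470 KAP1 peaks, 74014 H3K4me1 and 66242 H3K9me3 regions, 5015 and 12862 PolII peaks (control and Kap1 KD), and 2772 and 431 PolIII peaks. KAP1 was profiled in the standard culture alone, so neither its presence in the control cells nor its absence under Kap1 KD was measured at these regions. The PolII peaks carry running numbers with gaps. Missing were 31.3% of the control numbers and 22.6% of those under Kap1 KD, and the calls behind the missing numbers were not analysed here.

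The starts of the 4 genes whose KAP1-free regions met the highest control PolII scores are shown to let the reader see what such a start looks like, with 1 start of a region with KAP1 beside them. Each run covers 120 bases before the start and 20 from it on, 5′ to 3′ on the gene's strand in mm9, and capitals mark matches to the motifs searched, on either strand.
Axin2: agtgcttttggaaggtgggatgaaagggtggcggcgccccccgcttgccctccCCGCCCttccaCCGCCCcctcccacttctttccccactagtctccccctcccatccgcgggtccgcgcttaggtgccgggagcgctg
Hnrnpu: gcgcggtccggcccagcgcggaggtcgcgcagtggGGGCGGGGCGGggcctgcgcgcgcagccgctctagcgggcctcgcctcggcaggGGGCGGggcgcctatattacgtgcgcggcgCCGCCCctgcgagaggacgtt
Brd2: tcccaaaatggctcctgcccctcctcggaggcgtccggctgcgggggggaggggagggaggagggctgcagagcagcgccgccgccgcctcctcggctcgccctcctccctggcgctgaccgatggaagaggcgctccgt
Thbs1: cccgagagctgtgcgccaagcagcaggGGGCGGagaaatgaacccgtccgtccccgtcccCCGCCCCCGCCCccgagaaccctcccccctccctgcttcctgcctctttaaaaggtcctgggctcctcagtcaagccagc
Refbp2: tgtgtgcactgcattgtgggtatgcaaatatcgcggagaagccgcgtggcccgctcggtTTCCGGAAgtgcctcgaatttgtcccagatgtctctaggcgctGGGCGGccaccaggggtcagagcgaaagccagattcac
These runs lie at chr11:108782842-108782981 (plus strand) for Axin2, chr1:180267909-180268048 (minus) for Hnrnpu, chr17:34257309-34257448 (minus) for Brd2, chr2:117937492-117937631 (plus) for Thbs1 and chr1:173433489-173433628 (plus) for Refbp2, which had KAP1. The capitals at Axin2, Hnrnpu and Thbs1 are GGGCGG, the core of the GC box, or its reverse complement, with 2, 4 and 3 matches. Brd2 had no match in its run but 14 CpG dinucleotides and 74.3% GC. Refbp2 had 2 overlapping matches to CCGGAA, the core of ETS factor sites, and 1 GC box.

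Most of the KAP1-free regions lay beside the start and not on it. Their median width was 426 bp (10% to 90% range 162 to 1054 bp), against 566 bp for regions with KAP1, and 924 (12.6%) covered the start itself. The centre lay in an intron for 53.4%, outside protein-coding transcripts for 36.4%, in a UTR for 6.64% and in coding sequence for 3.54%. In bins of 100 bp, the centres were most frequent 500 bp upstream (563 regions, 7.67%) and again at 700 bp downstream (497 regions, 6.77%), with 153 regions (2.08%) in the bin at the start. At 747 of the 6328 starts (11.8%) a KAP1-free region stood on each side.

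**Figure D1:**
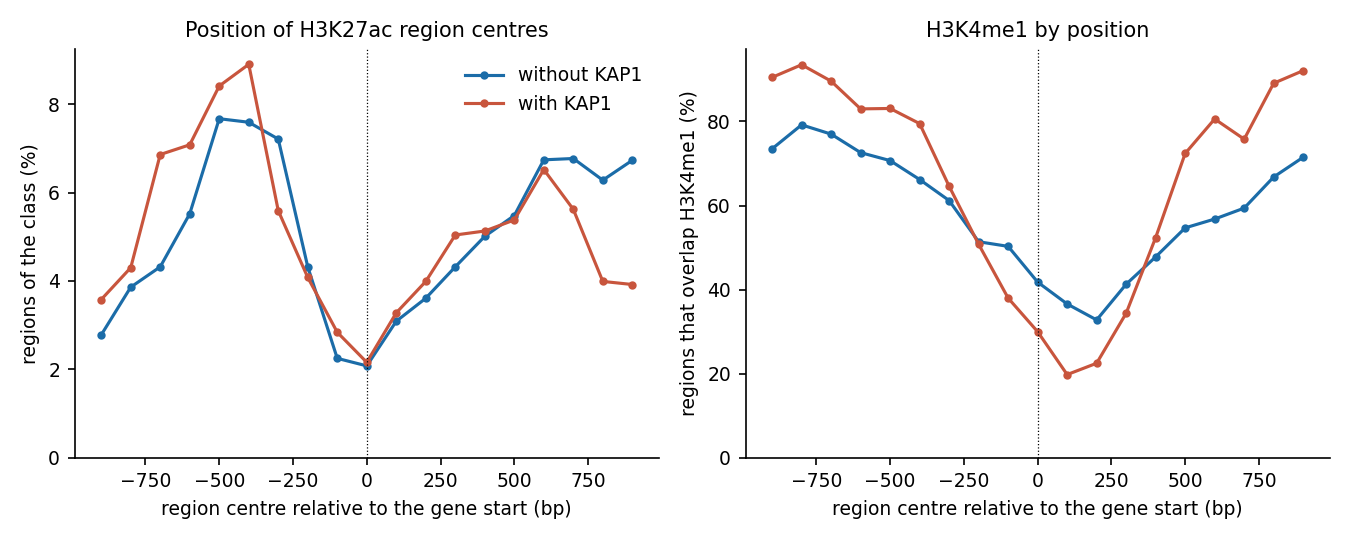
Position of region centres relative to the nearest gene start, in bins of 100 bp (x axis), as the percentage of each class (left) and as the percentage of regions in each bin that overlap H3K4me1 (right). KAP1-free regions are blue and regions with KAP1 red, and both classes have few centres at the start (2.08% and 2.16%) and H3K4me1 at fewer regions close to it than far from it.

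Centres upstream of the start made up 47.7% of the KAP1-free regions and 53.9% of those with KAP1, beside 47.2% of all H3K27ac regions, an odds ratio of 0.779 (95% interval 0.717 to 0.846, two-sided Fisher's exact p = 3.86e-09, 4.56e-09 after Benjamini-Hochberg adjustment over the 13 comparisons made). This difference was not detectable among centres within 500 bp of a start, where the odds ratio was 1.06 (exact p = 0.339).

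The regions belonged to 5244 genes by their nearest start. One region was found at 3516 of these genes (67.0%), 2 at 1444 (27.5%) and 3 or more at the rest. The highest number, 6, was found at 6 genes, among them Apobec3, a DNA cytidine deaminase gene, Myo18a, an unconventional myosin gene, and Plxnb2, a semaphorin receptor gene. The 6 Apobec3 regions were narrow (115 to 405 bp) and none overlapped PolII in either condition. The 6 Myo18a regions were 175 to 1716 bp wide, and 2 of them met control PolII.

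At the limits of the choice, the widest members were regions of 3949 bp at Olfr56, 3845 bp at Aif1 and 3708 bp at Mpp4, and the next wider KAP1-free regions were 4029 bp, again at Olfr56, and 4060 bp at 4930455H04Rik. The farthest centres lay 1000 bp from the starts of Upf2 and Vasp, and the first outside 1001 bp from that of Ank3. The KAP1-free regions at Wdr74 and Pank2 directly adjoined a KAP1 peak, while regions at Dennd3 and Lonp1 were placed with KAP1 by an overlap of 1 and 2 bp. The median distance from a KAP1-free region to the nearest KAP1 peak was 35437 bp, and 791 regions (10.8%) had one within 1 kb.

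PolII was found at far fewer of the KAP1-free regions than of the regions with KAP1. A control PolII peak overlapped 1119 of the 7339 KAP1-free regions (15.2%, 95% Wilson interval 14.4 to 16.1%) and 1404 of the 3236 with KAP1 (43.4%, 41.7 to 45.1%), beside 8.65% of all H3K27ac regions. The odds ratio was 0.235 (0.214 to 0.258, exact p = 7.65e-203, adjusted 3.32e-202). The Kap1 KD PolII list overlapped 2392 KAP1-free regions (32.6%, 31.5 to 33.7%) and 2143 with KAP1 (66.2%, 64.6 to 67.8%), beside 18.1% of all H3K27ac regions, an odds ratio of 0.247 (0.226 to 0.269, exact p = 5.19e-228, adjusted 3.37e-227). KAP1-free regions still held PolII more often than distal H3K27ac regions without KAP1, whose centres lay over 1 kb from a start: 3.01% of those 41203 met control PolII, an odds ratio of 5.80 (5.33 to 6.32) with a p-value at the limit of double precision. Intervals cover counting error over regions only.

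**Figure D2:**
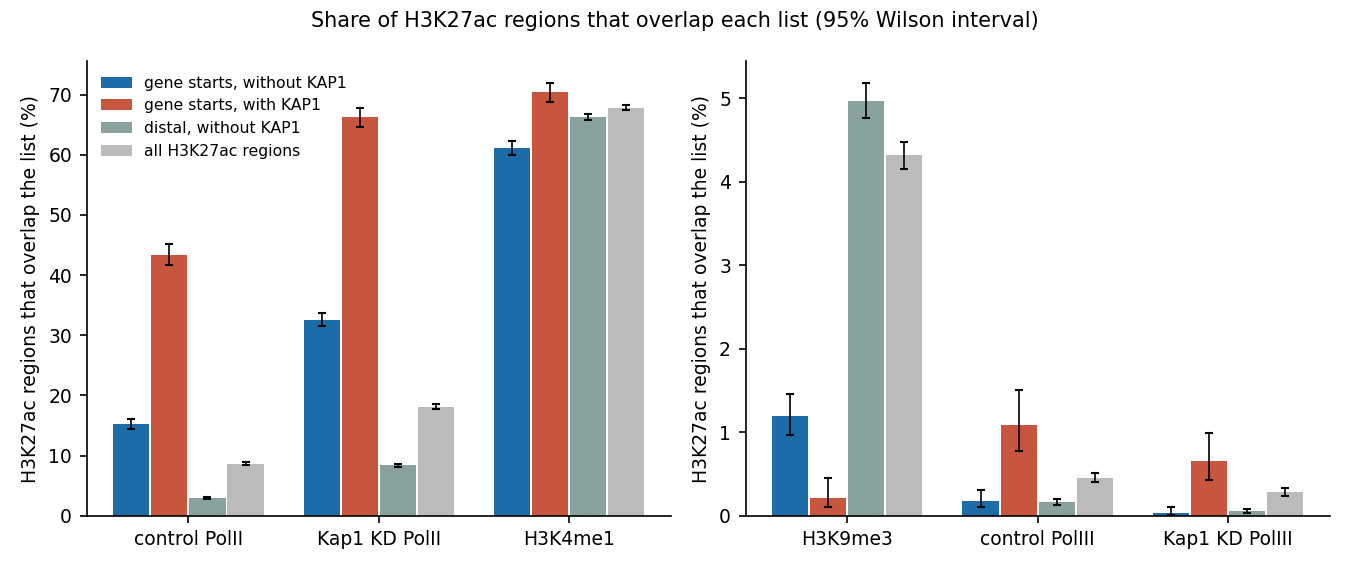
Percentage of H3K27ac regions that overlap each list (y axis) for KAP1-free regions at gene starts (blue), regions at gene starts with KAP1 (red), distal regions without KAP1 (green) and all H3K27ac regions (grey), with 95% Wilson intervals over regions. Control PolII is at 15.2%, 43.4%, 3.01% and 8.65% of these classes, and the scale of the right panel is smaller.

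The same held in every width class. From the narrowest to the widest quintile of all regions at starts, control PolII was found at 11.4%, 10.9%, 12.1%, 17.0% and 27.9% of the KAP1-free regions and at 40.2%, 37.3%, 35.4%, 40.7% and 56.5% of those with KAP1. A KAP1-free region that covered its start met control PolII more often (22.6%) than one beside it (14.2%), and one at a start of high CpG content more often (18.5%) than at other starts (11.8%). Upstream and downstream regions hardly differed (15.3% and 15.2%).

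Seen from the start rather than from the region, the PolII peaks sat where H3K27ac was low. At 6117 starts whose nearest regions were all KAP1-free, the base at the start was inside an H3K27ac region for 15.8%, against 48.3% at 500 bp upstream and 44.4% at 500 bp downstream. The same base was inside a control PolII peak for 21.3% and a Kap1 KD PolII peak for 42.2% of the starts. At 2612 starts whose regions all overlapped KAP1 the values were 18.1%, 49.8% and 73.1%. The control PolII peaks over KAP1-free regions had their centres at a median of 87 bp downstream of the start and a median width of 1051 bp.

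**Figure D3:**
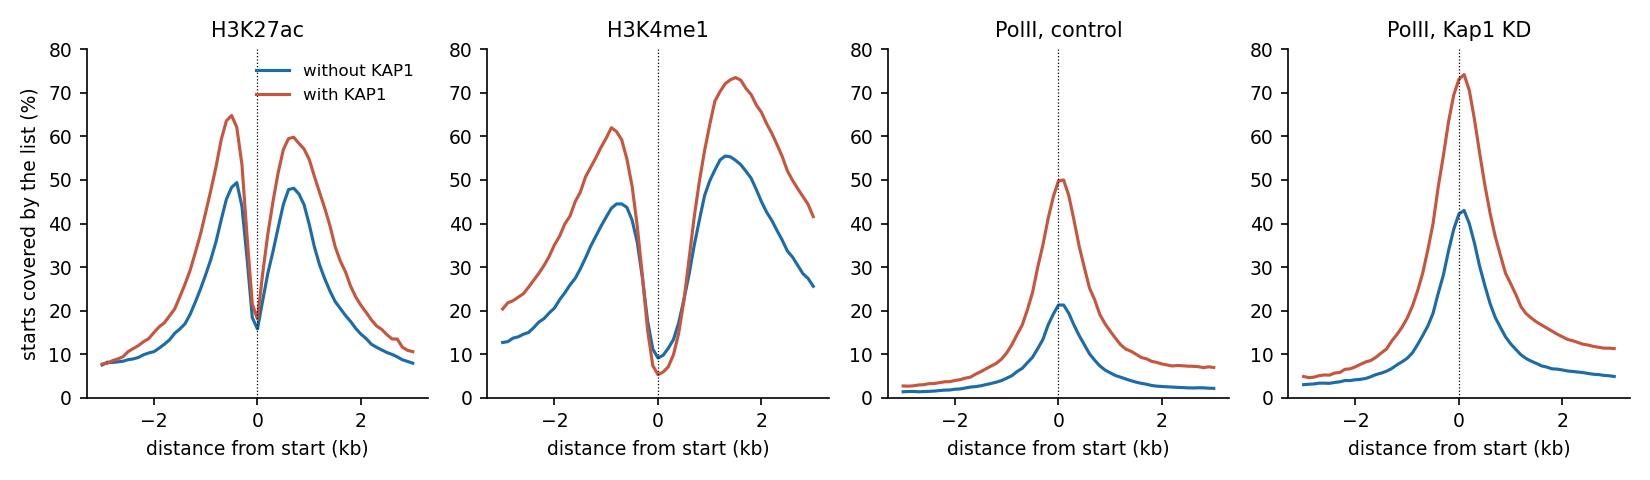
Percentage of gene starts at which the given position is inside each list (y axis) against distance from the start (x axis, kb, negative upstream), for 6117 starts with KAP1-free regions only (blue) and 2612 with regions with KAP1 only (red). H3K27ac and H3K4me1 dip at the start, where both PolII lists peak.

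The KAP1-free regions that met the highest control PolII peaks belonged to genes of many kinds. Ranks give the place of the peak's deposited score among the 5015 control and 12862 Kap1 KD peaks. The region of Axin2, a scaffold of the β-catenin destruction complex and a Wnt target (chr11:108782913-108783805, an intron), met the peak of rank 11 in the control and 27 under Kap1 KD. That of Hnrnpu, a nuclear RNA-binding protein (chr1:180267024-180267170, coding sequence), met ranks 20 and 147. Brd2, which reads acetylated histones (chr17:34257426-34257835, in a UTR), met ranks 47 and 38.

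Thbs1, encoding the matrix protein thrombospondin 1 (chr2:117937841-117937989, an intron), met ranks 49 and 64, and the tyrosine phosphatase gene Ptpn6 (chr6:124688059-124688486, an intron) 54 and 58. The control peak at Ptpn6 (chr6:124688429-124691958) covered the start at 124688602 on the minus strand but lay mostly upstream of the gene. The next were the histone H3 gene Hist1h3h, the glycolytic gene Gapdh, the growth factor binding protein gene Igfbp4, Gnb2l1, which encodes a scaffold protein of the ribosome, and the corepressor gene Irf2bp2, at control ranks 58, 60, 64, 66 and 69. All 10 also met a Kap1 KD peak, 4 overlapped H3K4me1, and 1, at Axin2, covered its start. The highest peaks over regions with KAP1 ranked higher, at 3 for the shared peak of Refbp2 and B930036N10Rik and at 5 for Rdm1.

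Some PolII peaks over KAP1-free regions overlapped KAP1 outside the H3K27ac region. Of the 10 named regions, 7 lay within 1 kb of a KAP1 peak: Hist1h3h at 25 bp, Gapdh at 65, Igfbp4 at 79, Hnrnpu at 247, Brd2 at 421, Irf2bp2 at 661 and Axin2 at 812 bp. The control PolII peak itself overlapped a KAP1 peak at 148 of the 1119 KAP1-free regions with PolII (13.2%, 11.4 to 15.3%). Counted as peaks, these were 129 of 896 (14.4%, 12.3 to 16.8%), beside 39.8% of all 5015 control PolII peaks. The regions were chosen to share no base with KAP1. A share below that of the whole list, here and under Kap1 KD, is therefore favoured by the choice and is not a result. In the top quartile of the control scores the share of regions was 32.5% (27.4 to 37.9%, n = 302), and it was 9.02%, 4.68% and 1.97% in the next quartiles. Under Kap1 KD the share was 12% over all KAP1-free regions with PolII and 23.3%, 6.60%, 1.94% and 0.833% by quartile, beside 26.7% of all 12862 Kap1 KD peaks. The peaks of high rank were also wider, with median widths of 2884, 1207, 740.0 and 442 bp from the top to the lowest control quartile, and the part of width in these shares was not tested.

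**Figure D4:**
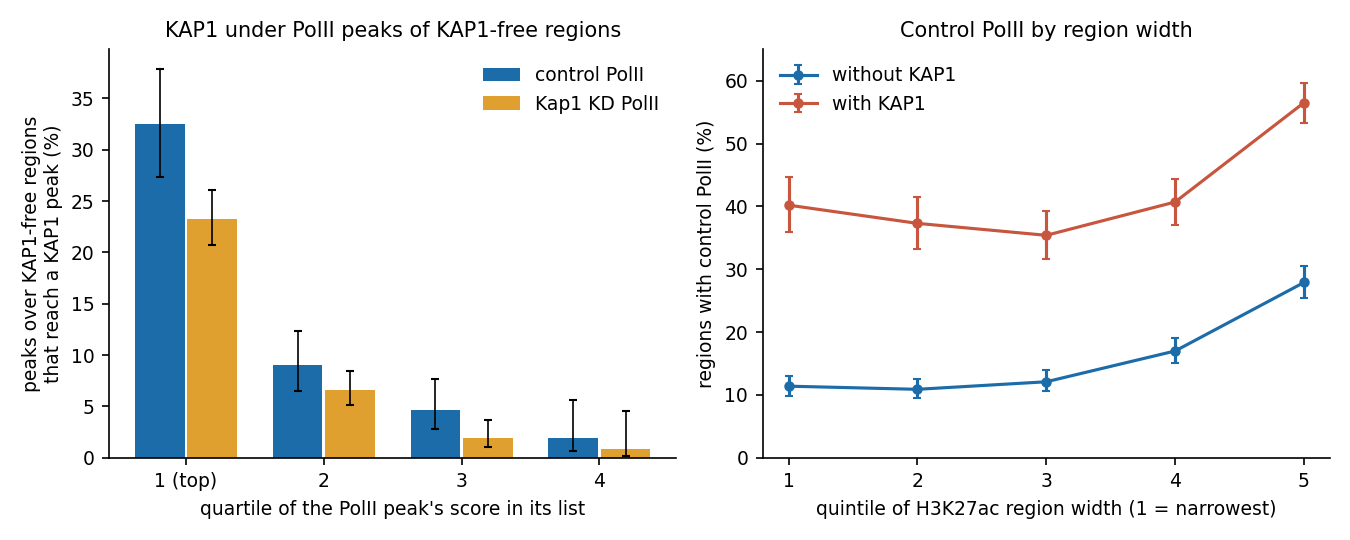
Left, percentage of KAP1-free regions with PolII whose PolII peak itself overlaps a KAP1 peak (y axis) by quartile of that peak's deposited score (x axis, 1 is highest), for control (blue) and Kap1 KD (yellow), and right, percentage of regions with control PolII by quintile of region width for KAP1-free regions (blue) and regions with KAP1 (red), all with 95% Wilson intervals. The share that reaches KAP1 falls from 32.5% to 1.97% in the control, and the curves on the right stay apart at every width.

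The choice left out every region that overlaps KAP1, of which 43.4% met control PolII, so the distances given here start beyond those regions. Control PolII was found at 16.9% of the KAP1-free regions up to 1 kb from a KAP1 peak, 22.4% of those at 1 to 10 kb and 13.7% of those farther away. With the 791 regions up to 1 kb from KAP1 left out, the odds ratio against regions with KAP1 was 0.231, beside 0.235 with them.

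Genes were then grouped by whether a region of either class had its centre within 1 kb of any of their starts. A KAP1-free region was found at 5556 of 22232 protein-coding genes (25.0%). Of these, 4945 had KAP1-free regions only and 611 both classes, and 1976 further genes had regions with KAP1 only. A control PolII peak reached within 250 bp of a start at 25.3% of the genes with KAP1-free regions only, 53.2% of those with both, 56.8% of those with KAP1 only and 3.39% of the 14700 with neither. Under Kap1 KD these shares were 50.7%, 78.7%, 81.6% and 6.79%. The H3K27ac regions and not the starts were chosen to be free of KAP1, and a KAP1 peak reached within 250 bp of a start at 274 of the 4945 genes with KAP1-free regions only (5.54%) and at 7.05% of those with neither.

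Between the control and Kap1 KD lists, KAP1-free regions met Kap1 KD PolII less often than regions with KAP1, both where control PolII was present and where it was not. Of the 1119 with control PolII, 975 (87.1%) also met Kap1 KD PolII, against 1297 of 1404 with KAP1 (92.4%), beside 90.7% of all H3K27ac regions with control PolII, an odds ratio of 0.559 (0.429 to 0.727, exact p = 1.67e-05, also after adjustment). It was 0.808 (exact p = 0.199) when at least 0.5 of the region had to be covered. Of the 6220 without control PolII, 1417 (22.8%) met Kap1 KD PolII, against 846 of 1832 with KAP1 (46.2%), beside 11.3% of all H3K27ac regions without control PolII, an odds ratio of 0.344 (0.308 to 0.384, exact p = 2.90e-80, adjusted 9.42e-80). PolII in neither list was recorded for 4803 KAP1-free regions (65.4%) and for 30.5% of those with KAP1. The Kap1 KD list is longer than the control list as a whole, and with 1 library each and unknown depth the knockdown and the library cannot be told apart.

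The KAP1-free regions without control PolII that met the highest Kap1 KD peaks were at Gtf3c6, a subunit gene of the PolIII factor TFIIIC (rank 18, chr10:39976738-39977262, an intron), Phlda1 (rank 62), Thbs1 (rank 64), the actin-binding protein gene Lasp1 (rank 65) and the glycosyltransferase gene Mgat4b (rank 96). No number was missing from the control list between the peaks to each side of these 5 regions, and every numbered control call there was in the list used. The Thbs1 region here lay 903 bp upstream, while another KAP1-free region 303 bp downstream of the same start met the control peak of rank 49. Among all KAP1-free regions without a control peak that lie between deposited control peaks, no number was missing for 82.5%, against 88.3% of those with KAP1.

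H3K4me1 was found at 4482 KAP1-free regions (61.1%, 59.9 to 62.2%) and at 2278 with KAP1 (70.4%, 68.8 to 71.9%), beside 67.8% of all H3K27ac regions, an odds ratio of 0.660 (0.604 to 0.721, exact p = 1.99e-20, adjusted 4.32e-20). Against distal regions without KAP1 (66.3%), the odds ratio was 0.799 (0.759 to 0.841, exact p = 1.27e-17, adjusted 2.37e-17). The mark depended on place and width. It was found at 32.8% of the KAP1-free regions centred about 200 bp downstream and at 79.2% of those about 800 bp upstream, against 22.5% and 93.5% of those with KAP1. In the narrowest quintile the shares were 36.1% and 22.4%, and in the widest 86.2% and 93.8%. The KAP1-free share was thus the higher one among the narrowest regions and in each bin from 100 bp upstream to 300 bp downstream, differences that were not tested, and the lower one among the widest regions and in the bins farther out than 400 bp. Over all centres within 500 bp of a start, where both directions occurred, the odds ratio was 0.979 (exact p = 0.736). Counting an H3K4me1 region up to 500 bp away as overlap turned the difference from distal regions to 1.1 (exact p = 0.00118).

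H3K9me3 was rare at the KAP1-free regions but more frequent than at regions with KAP1, at 87 (1.19%, 0.962 to 1.46%) against 7 (0.216%, 0.105 to 0.446%), beside 4.32% of all H3K27ac regions. The odds ratio was 5.53 (2.56 to 12, exact p = 6.16e-08, adjusted 6.68e-08), from 1.99 with H3K9me3 up to 500 bp away to 16.9 with at least 0.5 of the region covered. Of the 87 regions, 80 also overlapped H3K4me1 and 1 met control PolII. Genes with 3 or more KAP1-free regions held 41 of the 87. With 1 region per gene, the one nearest its start, the counts were 45 of 5244 and 5 of 2391, an odds ratio of 4.13 (1.64 to 10.4). The longest overlaps were at Sfi1, a centrosomal protein gene (3384 bp, the whole region), Sp140, a nuclear body protein gene (1674 bp, the whole region) and Gm10722 (1433 bp). H3K9me3 was found at 2.02% of the KAP1-free regions at starts of lower CpG content and 0.419% of those at high CpG.

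Few KAP1-free regions met a listed PolIII peak. Of the running numbers of the PolIII peaks, 30.4% were missing in the control list and 55% in the Kap1 KD list, and those calls were not analysed here. In the control 13 overlapped a PolIII peak (0.177%), against 35 with KAP1 (1.08%), beside 0.455% of all H3K27ac regions, an odds ratio of 0.162 (0.0858 to 0.307, exact p = 1.81e-09, adjusted 2.51e-09). All 13 lay on chromosomes 1 to 4, and without these chromosomes the counts were 0 of 5386, which allows a share of up to 0.0557%, and 18 of 2340. The highest were at Dedd, an apoptosis gene, and at Ppox, an enzyme gene of haem synthesis with a KAP1-free region on each side of its start. Under Kap1 KD 2 KAP1-free regions (0.0273%), at 2610301B20Rik and 9930023K05Rik, and 21 with KAP1 (0.649%) met PolIII, beside 0.281% of all H3K27ac regions, an odds ratio of 0.0417 (0.00978 to 0.178, exact p = 1.93e-09, adjusted 2.51e-09). Over the other settings that gave an odds ratio, it ranged from 0.113 to 0.293 in the control and from 0.0209 to 0.0879 under Kap1 KD.

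The sequence around the starts also differed between the classes. High CpG content, an observed over expected CpG ratio of at least 0.75 over 500 bp around the start, was found for 52.0% of the KAP1-free regions (50.9 to 53.2%) and 67.2% of those with KAP1 (65.5 to 68.8%), beside 41.9% of all H3K27ac regions, an odds ratio of 0.530 (0.486 to 0.578, exact p = 3.43e-48, adjusted 8.92e-48). Starts in divergent pairs, with the start of another gene on the opposite strand within 1 kb, were nearest to 11.6% and 17.0%, beside 5.90% of all H3K27ac regions, an odds ratio of 0.640 (0.570 to 0.719, exact p = 1.32e-13, adjusted 2.15e-13). On chromosomes 9, 12, 14, 16 and X alone it was 1.01 (0.521 to 1.95), from 76 regions with KAP1. Over single starts, the median CpG ratio was 0.764 for KAP1-free, 0.823 for KAP1 and 0.580 for all protein-coding starts.

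From 250 bases before to 50 after the start, on either strand, GGGCGG, shown in capitals at Axin2, Hnrnpu and Thbs1, was found at 59.1% of the 6328 KAP1-free starts, 64.1% of the 2823 starts with KAP1 and 44.2% of all 45975 starts. The ETS core CCGGAA was found at 28.2%, 37.4% and 17.8%. GCATGCGC, part of the site of NRF1, was found at 4.66%, 8.47% and 3.24%, and CACGTG, the E-box of USF and MYC proteins, at 8.82%, 12.7% and 7.67%. TGACGTCA, the cyclic AMP response element, was found at 2.99%, 4.39% and 2.13%. TATAAA, the core of the TATA box, was found at 7.47%, 6.27% and 11.4%, CCAAT, which NF-Y binds, at 37.1%, 34.9% and 35.7%, and AAGATGG, a YY1 motif, at 7.95%, 8.50% and 6.82%. For each of these motifs but CCAAT, the share at KAP1-free starts lay between those of all starts and of starts with KAP1. These shares are descriptions without a test, and a match is not a bound site.

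The chromosomes differed in how many regions at starts were free of KAP1. On chromosomes 9, 12, 14, 16 and X, 88.6 to 97.6% of the H3K27ac regions at starts overlapped no KAP1 peak, against 52.2 to 78.1% on each of the other 15. The KAP1-free regions of these 5 chromosomes also met control PolII and H3K4me1 at a lower share. Control PolII was found at 74 of 1090 (6.79%) there and at 1045 of 6249 (16.7%) elsewhere, and H3K4me1 at 25.7% and 67.2%. These lists were also sparser on the 5 chromosomes, with 13.1 against 24.6 H3K27ac regions per Mb, 1.60 against 5.72 KAP1 peaks, 0.560 against 2.33 control PolII peaks and 10.7 against 33.6 H3K4me1 regions, beside 13.9 against 18.5 gene starts.

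These chromosomes were set apart after the values were seen, and what sets them apart was not tested. The copy number of these chromosomes in Hepa 1-6 cells was not analysed here. Within the 5 chromosomes the control PolII odds ratio against regions with KAP1 was 0.191 (exact p = 1.22e-07), without them 0.258, and across strata of single chromosomes (Mantel-Haenszel) 0.270. The H3K4me1 odds ratio moved from 0.660 to 0.828 without them and to 0.877 within chromosomes (Mantel-Haenszel chi-square p = 0.00616). The H3K9me3 odds ratio was 3.34 without them, since 41 of the 87 KAP1-free regions with H3K9me3 were on these 5 chromosomes. Of the control PolII numbers, 87.2% were missing on chromosome X but 11.3 to 22.9% on chromosomes 9, 12, 14 and 16, against 31.3% in the whole list.

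**Figure D5:**
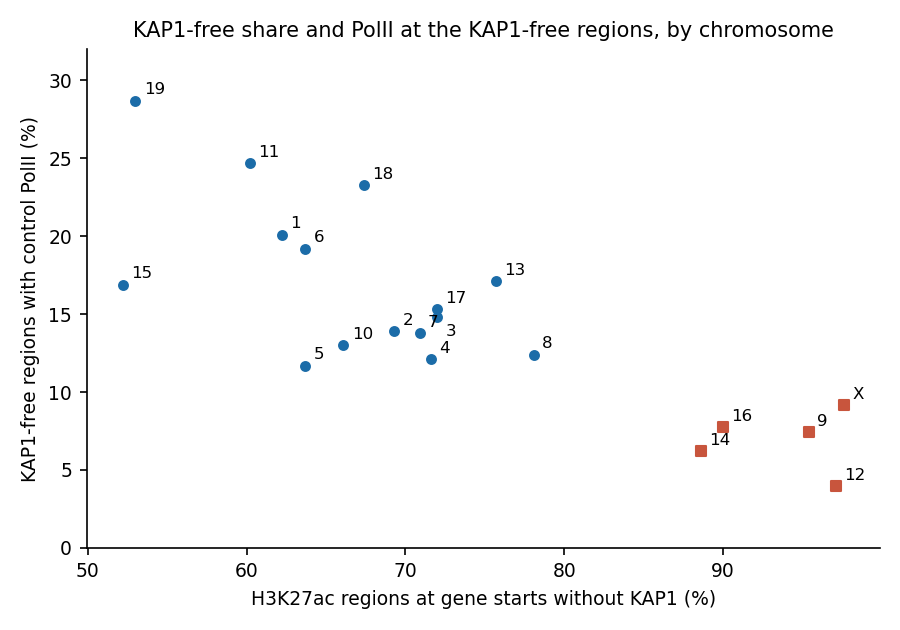
Each point is a chromosome, placed by the percentage of its H3K27ac regions at gene starts that overlap no KAP1 peak (x axis) and the percentage of those KAP1-free regions with control PolII (y axis). Chromosomes 9, 12, 14, 16 and X (red squares) lie at 88.6% or more on the x axis and at 9.17% or less on the y axis.

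Named gene groups were described by counts alone, beside the 25.0% of all protein-coding genes with a KAP1-free region. Among 13 hepatocyte markers, 6 had one: Alb, Afp, Trf, Fgb and Ambp, which encode plasma proteins, and Apoe, which also had a region with KAP1. Alb, the albumin gene, had a region of 1566 bp centred 862 bp downstream, with no PolII peak and no H3K4me1 over it. Afp, the fetal counterpart of albumin, had 2, and the one described here was 287 bp wide, centred 22 bp from its start and also without PolII. The Apoe region met control PolII at rank 636 and that of Ambp at rank 3128. The Ambp peak lay upstream of the gene, and neither PolII list reached within 250 bp of an Ambp start. Ttr, Apoa1, Apoa2, Apob, Fga, Ahsg and Serpina1a had a region of neither class.

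Of 17 liver transcription factor genes, 8 had KAP1-free regions only, Hnf4a, Foxa2, Foxa3, Onecut2, Nr5a2 and Nr1h4 among them. Foxa2, a pioneer factor of liver, met control PolII at rank 316 and Kap1 KD PolII at rank 317. Prox1 had a region with KAP1 only. Of 21 markers of other liver cell types, such as endothelial, stellate, immune and bile duct cells, 2 had a KAP1-free region, Col1a1 and Sox9. The Sox9 region and the one described of 2 at Col1a1 did not meet PolII, although both PolII lists reached within 250 bp of a start of Sox9.

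Genes of the chromatin and transcription machinery followed. Of 15 writers, readers and erasers of H3K27ac, 11 had a KAP1-free region, among them Ep300, which encodes p300 (control PolII rank 1380). Of 24 genes for KAP1 partners, 14 had one, Setdb1, Cbx1, Chd3, Atrx and Dnmt1 among them, and 6, such as the HP1 genes Cbx3 and Cbx5, had KAP1 only. Of 31 general transcription factor genes 20 had one, led by Gtf2a1 of TFIIA (control rank 462) and Taf10 of TFIID (rank 837). The counts were 6 of 12 for PolII subunits, 14 of 24 for pausing and elongation factors, where Ddx21 ranked 1252, and 14 of 20 for DNA replication licensing, where Orc6 ranked 2003. With centres within 500 bp of a start these counts were 3, 6 and 5, while that of all genes fell from 5556 to 2998.

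Among 20 aminoacyl-tRNA synthetase genes, 9 had KAP1-free regions only and 8 KAP1 only. The highest was Vars, for valine, at control rank 182, with its region 12 bp from a KAP1 peak. Respiratory complex I had a KAP1-free region at 15 of 35 genes and the mitochondrial ribosome at 41 of 76, with Mrpl53 at rank 999. Of 361 genes named Zfp and a number, most of them for C2H2 zinc finger proteins, 142 (39.3%) had one, of which 131 had no region with KAP1. The highest was Zfp703 at control rank 455. Apart from the markers of other liver cell types, each of these lists had a KAP1-free region at a larger share of its genes than the 25.0% of all genes. Apart from the hepatocyte markers and the liver transcription factors, each of those lists also had regions with KAP1 only at a larger share than the 8.89% of all genes, up to 8 of 20 for the aminoacyl-tRNA synthetase genes.

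Of 10 genes that the study names, 3 had a KAP1-free region. Ier2, an immediate early gene, met control PolII at rank 272 and Kap1 KD PolII at rank 339, with KAP1 350 bp away and a region with KAP1 at another place near its starts. Egr2, an early growth response gene, had a region 699 bp upstream without PolII. Trim28, the gene targeted by the knockdown, had one 428 bp upstream that met Kap1 KD PolII at rank 1696 and no control peak, and both PolII lists reached within 250 bp of its start. A hairpin acts on the transcript, so PolII at Trim28 is no check of the knockdown.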

How the data were processed

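The authors mapped reads with Bowtie to mm9. MACS, with total input as the control, gave their KAP1 and PolII peaks, and ChIP-Part their histone mark regions. The caller of PolIII was not given in the sources used here. The deposited lists hold positions, and the authors' KAP1, PolII and PolIII lists also hold peak scores. What the polymerase scores stand for is not given, and scores served only for ranks. No read counts are held in the lists, so depth is unknown. All positions lie within the mm9 chromosome lengths.

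KAP1-free regions, gene lists and tests were chosen with earlier results of these data known. Samples were grouped by antibody and cell labels. Overlap meant at least 1 shared bp, and the region's distance to KAP1 counts from its last base to the first base of the peak. Shares carry 95% Wilson intervals. Odds ratios carry Woolf intervals and two-sided p-values of Fisher's exact test over regions, adjusted over 13 comparisons by the Benjamini-Hochberg method, and stratified ones are Mantel-Haenszel estimates. The arithmetic of overlaps and distances, the Woolf interval and the Mantel-Haenszel estimate were tested on simulated data (Python 3.11.15, numpy 2.4.6, pandas 2.3.3, scipy 1.17.1). Named regions were those with the highest polymerase scores (10 KAP1-free, 5 with KAP1, 5 with Kap1 KD PolII alone, 1 region per gene), the 3 at each limit of the choice, the 3 with the longest H3K9me3 overlap, the highest with PolIII, the genes with most regions, and the 4 of highest PolII score in each gene list. Other genes of the lists were named after their values were seen. Some genes that the rule would name are not reported here. Genome sequence and genes came from NCBIM37 and GENCODE M1.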

Additional observations from a re-analysis of the deposited data

How the results depend on the processing

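Of 159 other settings run over the 13 comparisons, 155 kept the direction and side of the threshold. They changed how overlap was counted, the polymerase scores used, the width and distance limits, the annotation, the regions per gene and the chromosomes, or stratified by width, distance or CpG. With the centre within 500 bp of a start, the H3K4me1 odds ratio against regions with KAP1 was 0.979 and that of an upstream centre 1.06. With at least 0.5 of the region covered, that of Kap1 KD PolII at regions with control PolII was 0.808. With a gap of up to 500 bp counted as overlap, H3K4me1 against distal regions was 1.1. Of 36 fits by chromosome, added after the data were seen, 33 kept direction and threshold, and chromosomes 9, 12, 14, 16 and X alone gave 0.665 for H3K4me1 and 1.01 for divergent starts, from 76 regions with KAP1, and 1.22 for Kap1 KD PolII at regions with control PolII, from 21. In all these cases the cause was not tested. Control PolIII without chromosomes 1 to 4, and H3K9me3 and both PolIII lists on those 5 chromosomes, had a count of 0 in one class and no odds ratio. With 500 bp, 2998 genes had a KAP1-free region in place of 5556, and the count fell by more than 1.5 times for 10 of the 14 gene lists as well. One library a group, unknown depth and the missing peak numbers limit all values. A region without a peak is a region without a call.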
